A study of Mus musculus with 15 samples.

Results

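The progesterone receptor, encoded by Pgr, is a nuclear receptor that binds DNA once progesterone is bound to it and then raises or lowers the transcription of its target genes. In the uterus its targets prepare the lining for embryo implantation, and in the ovary they act in the rupture of the follicle. The 8 genes described here, Hand2, Gata2, Cited2, Greb1, Bmp2, Adamts1, Errfi1 and Rgs2, were chosen by symbol because they are known as targets of the receptor in reproductive tissue. They are 8 of the 55536 genes in the unfiltered count table, and all 8 passed the filter on low counts that left 17455 tested genes. The question was whether the level of any of them followed Pgr reads in heart nuclei.

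RNA was sequenced from mouse ventricular nuclei sorted for Pcm1, a centriolar satellite protein that marks cardiomyocyte nuclei, after depletion of ribosomal RNA. The 15 libraries carry 4 combinations of labels: 4 Pgr_KO female, 4 Pgr_KO male, 3 Pgr_WT female and 4 Pgr_WT male. The sources used here name neither the allele behind Pgr_KO nor the strain, and give no clear age, and the series title speaks of the human heart while all libraries are labelled mouse. Whether replicates came from separate animals is not labelled, so p-values measure only the spread among these libraries, which may be technical.

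Pgr, the gene named by the genotype labels, had reads in the libraries labelled Pgr_KO and almost none in those labelled Pgr_WT. Levels are given in CPM, a gene's counts per M counts of the library, with library sizes scaled by TMM. In females Pgr stood at 8.69, 11.9, 12.5 and 10.6 CPM in the Pgr_KO libraries, against 0.116, 0.267 and 0 CPM in the Pgr_WT libraries. In males it stood at 6.31, 6.10, 6.75 and 7.15 CPM in the Pgr_KO libraries, against 0.0901, 0.166, 0 and 0 CPM in the Pgr_WT libraries. The pooled reads differed 114-fold in females (95% interval 62.1 to 239) and 126-fold in males (95% interval 73.6 to 237), in the opposite direction to the labels. The ratio of mean CPM was 85.3 in females and 103 in males, and it was 187 without the Pgr_WT female replicate 2 and 219 without the Pgr_WT male replicate 2. The exact two-sided permutation test gave p = 0.0286 in each sex, the smallest it can give with these group sizes (adjusted p = 0.0286 over both sexes). Genotype is therefore named by label only, and a gene that followed Pgr reads would be higher in the libraries labelled Pgr_KO.

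Libraries held 24.4 to 139.4 M counts, with a median of 49.9 M. Cardiomyocyte markers were abundant throughout, with a summed level of 43677 to 74022 CPM over 8 genes. The libraries split by the markers of other cardiac cells in a way that no label describes. In 6 high-marker libraries (replicates 1 and 2 of both Pgr_KO groups and replicate 1 of both Pgr_WT groups) the 10 endothelial markers had a summed level of 293 to 523 CPM. In the remaining 9, the low-marker libraries, that sum was 22.0 to 75.1 CPM. The 9 fibroblast markers summed to 740 to 1971 CPM against 59.8 to 257 CPM and the 8 leukocyte markers to 48.7 to 114 CPM against 9.06 to 37.7 CPM. The sum of the 7 mural markers, mostly Abcc9 at 364 to 590 CPM, overlapped between the 2 sets. That sum says little of the other mural markers. Over all 15 libraries Rgs5 ran from 6.22 to 80.9 CPM, Pdgfrb from 1.72 to 28.4 CPM and Cspg4 from 24.3 to 39.6 CPM. Single mural markers were not compared between the sets. Every marker of these lists had reads. Sex-linked reads matched the sex labels in all 15 libraries, with Xist at 1126 to 1990 CPM in females and 0.335 to 54.1 CPM in males. Low levels of the other sex stood in 3 libraries, with Uty, a Y-linked gene, at 9.29 CPM in the Pgr_KO female replicate 2 and 10.5 CPM in the Pgr_WT female replicate 2, and Xist at 54.1 CPM in the Pgr_WT male replicate 2. Of 5 genes that mark endometrial or ovarian cells, 1, Msx1, had 10 or more reads in all, with at most 0.572 CPM in a library.

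None of the 8 targets was called as different between the genotype labels. With edgeR's quasi-likelihood test and Benjamini-Hochberg adjustment over all 17455 genes at 0.05, 0 of 8 were called in females, where 0% of all tested genes were called. In males 0 of 8 were called, against 0.0115% of all genes, and in the average over the sexes 0 of 8 against 0.0172%. In each of these 3 comparisons 0 of 8 also had an unadjusted p under 0.05 in this fit, and DESeq2 and limma-voom called 0 of 8. The median log2 fold change of the 8 genes, Pgr_KO over Pgr_WT, was 0.00 in females and -0.10 in males, beside 0.03 and 0.02 over all tested genes. In females 4 of the 8 values lay above 0 and 4 below, and in males 2 lay above and 6 below. Over all tested genes the test called 0 in females, 2 in males (Pgr and Gm32014) and 3 in the average, which adds Gm16485, while 303, 247 and 224 genes had an unadjusted p under 0.05. Pgr itself was not called in females, though its log2 fold change there was 6.61 (edgeR adjusted p = 0.315). In males Pgr stood just under the threshold, at 6.77 (edgeR adjusted p = 0.04995). A target that was not called is therefore not shown to be unchanged.

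Per length of the gene body, the 8 targets spanned a wide range of nuclear RNA levels. Counts cover whole gene bodies with introns, so a level per length is CPM divided by the kilobases from gene start to gene end. Hand2 was highest at 3.82 ± 1.11 CPM per kb, followed by Cited2 at 2.39 ± 0.661 and Rgs2 at 1.75 ± 0.472 (mean ± SD, n = 15 libraries each). Adamts1 stood at 1.15 ± 0.456 and Errfi1 at 0.465 ± 0.182 CPM per kb. Gata2 at 0.0915 ± 0.0965, Bmp2 at 0.0399 ± 0.0340 and Greb1 at 0.00822 ± 0.00238 CPM per kb were lowest. Neighbours in this order overlapped in their ranges over the libraries at every step except that from Errfi1 (0.277 to 0.893 CPM per kb) to Gata2 (0.00584 to 0.276 CPM per kb). Hand2 lay at percentile 95.2 of the tested genes on this scale and Greb1 at percentile 7.17. Exons cover 57.1% to 100% of the bodies of Hand2, Cited2, Rgs2 and Adamts1. They cover 7.35% to 41.1% of those of Errfi1, Gata2, Bmp2 and Greb1. The levels per length were not adjusted for this share, so their order is not a ranking of transcript abundance alone.

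**Figure D1:**
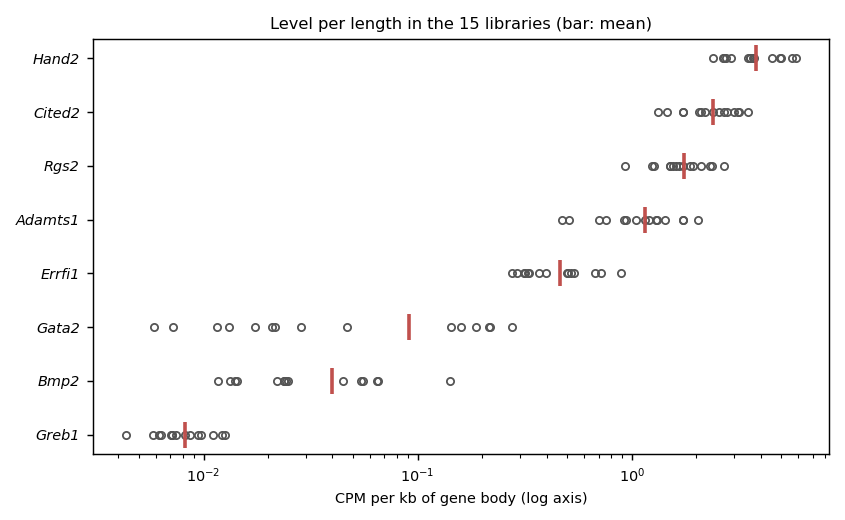
Level per length of the 8 uterine targets on a log axis, in CPM per kb of gene body. Each circle is 1 of the 15 libraries and the bar is their mean; Hand2 (mean 3.82) and Cited2 (2.39) are highest, Greb1 (0.00822) is lowest, and Gata2 and Bmp2 spread most.

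Hand2, a basic helix-loop-helix transcription factor, is made in uterine stroma under progesterone, and in the embryo it is needed for the right ventricle. The gene lies on chromosome 8 (57320983 to 57324633, plus strand, GRCm38), and exons cover 64.4% of its body in GENCODE M21. Hand2 in females had 13.1, 8.72, 9.73 and 10.7 CPM in the Pgr_KO libraries, against 18.2, 10.1 and 12.7 CPM in the Pgr_WT libraries. Hand2 in males had 20.4, 13.6, 13.5 and 21.3 CPM in the Pgr_KO libraries, against 18.0, 9.81, 16.5 and 13.1 CPM in the Pgr_WT libraries. The labels overlapped in both sexes. The log2 fold change was -0.37 ± 0.25 (SE) in females and 0.27 ± 0.23 in males (edgeR adjusted p = 1 and 0.999). Without the 3 libraries that hold other-sex reads the male value was 0.12.

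Hand2 was the 1 member that separated the sexes under a label. Under the Pgr_KO label it averaged 10.6 ± 1.87 CPM in females and 17.2 ± 4.26 CPM in males (SD, n = 4 each), and the highest female library (13.1 CPM) lay below the lowest male one (13.5 CPM). Ranges failed to overlap in 3.18% of all tested genes in that comparison. The log2 difference, females minus males, was -0.71 ± 0.24 (SE, edgeR adjusted p = 0.757), so Hand2 was not called. In the fit without the 3 libraries that hold other-sex reads it was -0.62 ± 0.22 (SE, edgeR adjusted p = 0.971). Under the Pgr_WT label Hand2 averaged 13.7 ± 4.11 CPM in females (SD, n = 3) and 14.3 ± 3.64 CPM in males (SD, n = 4), and the ranges overlapped. The difference between the label effects in females and in males was -0.64 ± 0.35 on the log2 scale (SE, edgeR adjusted p = 1).

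Hand2 shares most of its body with a far more abundant gene on the other strand. Hand2os1, a long non-coding RNA that runs from 57281117 to 57324233, overlaps 3251 of the 3651 bases of Hand2 and had 204 to 381 CPM. The kit is directional, and the name of the deposited table carries the tag strrev, which reads as counting on the reverse strand and would keep the reads of both genes apart. The labels do not explain the tag, so the Hand2 level is given as uncertain. Hand2 CPM were 2.80% to 6.05% of those of Hand2os1 in the Pgr_KO females and 5.13% to 8.08% in the Pgr_KO males. Hand2os1 itself averaged 295 ± 56.0 CPM in Pgr_KO females and 253 ± 20.2 CPM in Pgr_KO males (SD, n = 4 each), a log2 difference of 0.22 ± 0.20 (SE, edgeR adjusted p = 0.832).

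Gata2 was the only target whose 4 group means stood in the order of Pgr, and it also split the libraries by the markers of other cells. Gata2 is a zinc-finger transcription factor of the uterine epithelium, where it acts upstream of Pgr as well as beside it, and elsewhere of blood progenitors and endothelium (chromosome 6, 88193891 to 88207032, plus strand). Female levels of Gata2 were 1.88, 3.63, 0.0768 and 0.275 CPM in the Pgr_KO libraries, against 2.87, 0.229 and 0.376 CPM in the Pgr_WT libraries. Male levels of Gata2 were 2.47, 2.09, 0.173 and 0.284 CPM in the Pgr_KO libraries, against 2.84, 0.616, 0.0943 and 0.151 CPM in the Pgr_WT libraries. Each group held both high and low libraries, and the labels overlapped.

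The group means of Gata2 were 1.46 ± 1.65 CPM in Pgr_KO females, 1.25 ± 1.19 in Pgr_KO males, 1.16 ± 1.49 in Pgr_WT females and 0.925 ± 1.30 in Pgr_WT males (SD, n = 4, 4, 3 and 4). The SD exceeded the mean in 3 of the 4 groups and was close to it in the Pgr_KO males. Means stood in this order in 4.85% of all tested genes. The log2 fold change was 0.36 ± 1.43 in females and 0.41 ± 1.31 in males (SE, edgeR adjusted p = 1 and 0.999), with 95% intervals of -2.73 to 3.45 and -2.42 to 3.23. In the low-marker libraries alone the values were -0.79 in females and -0.23 in males, and with the marker score as a covariate -0.26 and 0.03. Without the 3 libraries that hold other-sex reads the female value was -1.09, and without replicate 1 of the Pgr_WT group it was 2.25 in females and 2.12 in males.

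By marker level Gata2 split without overlap, at 1.88 to 3.63 CPM in the 6 high-marker libraries and 0.0768 to 0.616 CPM in the 9 low-marker libraries. The share of all tested genes that split in this way was not computed, so the split is not shown to be particular to Gata2. The lowest value rests on 3 reads, with a counting interval of 0.0158 to 0.224 CPM (95%, exact Poisson, counting error only). High-marker libraries were 2 of 4 in each Pgr_KO group, 1 of 3 in Pgr_WT females and 1 of 4 in Pgr_WT males. In such bulk samples fewer cells of a type and less RNA per cell cannot be told apart.

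Bmp2 and Errfi1 divided the libraries at nearly the same line as Gata2. Bmp2, a secreted ligand of the bone morphogenetic protein family that drives decidualisation of the uterine stroma (chromosome 2, 133552159 to 133562885, plus strand), had 6 to 93 reads per library. Bmp2 in females had 0.586, 1.52, 0.256 and 0.254 CPM in the Pgr_KO libraries, against 0.699, 0.267 and 0.15 CPM in the Pgr_WT libraries. Bmp2 in males had 0.598, 0.482, 0.126 and 0.153 CPM in the Pgr_KO libraries, against 0.691, 0.142, 0.259 and 0.237 CPM in the Pgr_WT libraries. The high-marker libraries held 0.482 to 1.52 CPM and the low-marker ones 0.126 to 0.267 CPM, with no overlap, for which the share of all genes was not computed either. Its label effect was 0.86 ± 0.81 in females and -0.04 ± 0.73 in males on the log2 scale (SE, edgeR adjusted p = 1 and 0.999). The female value was -0.15 without the 3 libraries that hold other-sex reads, of which the Pgr_KO female replicate 2 had the highest Bmp2 level, 1.52 CPM.

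Errfi1 encodes an inhibitor of the epidermal growth factor receptor, also called Mig-6, through which progesterone restrains growth of the uterine epithelium (chromosome 4, 150853919 to 150868892, plus strand). Female levels of Errfi1 were 8.06, 13.4, 5.97 and 4.94 CPM in the Pgr_KO libraries, against 7.46, 4.88 and 4.15 CPM in the Pgr_WT libraries. Male levels of Errfi1 were 7.77, 10.1, 4.69 and 4.36 CPM in the Pgr_KO libraries, against 10.7, 7.56, 5.54 and 4.74 CPM in the Pgr_WT libraries. Errfi1 overlapped between the labels in both sexes. The log2 fold change was 0.56 ± 0.40 in females and -0.09 ± 0.37 in males (SE, edgeR adjusted p = 1 and 0.999), and the female value was 0.13 without the 3 libraries that hold other-sex reads. Levels were 7.46 to 13.4 CPM in the high-marker libraries and 4.15 to 7.56 CPM in the low-marker ones, where 1 library, the Pgr_WT male replicate 2, reached into the high-marker range.

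Adamts1 ran against Pgr reads in its means. Adamts1 is a secreted metalloprotease that cleaves the proteoglycan versican and is a classic target of the receptor in ovulating follicles (chromosome 16, 85793827 to 85803113, minus strand). Adamts1 in females had 9.76, 18.9, 6.55 and 7.03 CPM in the Pgr_KO libraries, against 16.1, 13.3 and 12.3 CPM in the Pgr_WT libraries. Adamts1 in males had 12.1, 11.2, 4.40 and 4.71 CPM in the Pgr_KO libraries, against 16.1, 10.8, 8.58 and 8.77 CPM in the Pgr_WT libraries. The labels overlapped in both sexes, and the 2 lowest libraries of each sex carried the Pgr_KO label. The log2 fold change was -0.39 ± 0.42 in females, -0.45 ± 0.39 in males and -0.42 ± 0.29 in their average (SE, edgeR adjusted p = 1, 0.999 and 1). Without the 3 libraries that hold other-sex reads it was -0.86 ± 0.47 in females and -0.66 ± 0.30 in the average (SE, edgeR adjusted p = 0.938 and 1).

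Among the 9 low-marker libraries Adamts1 separated the labels without overlap. It held 4.40 to 7.03 CPM in the 4 libraries labelled Pgr_KO and 8.58 to 13.3 CPM in the 5 labelled Pgr_WT. Of these 5, the replicate 2 of each sex (13.3 and 10.8 CPM) holds other-sex reads, and the remaining 3 had 12.3, 8.58 and 8.77 CPM. Ranges failed to overlap in 0.814% of all tested genes in this comparison, which pools the sexes. A fit of these 9 libraries gave an average log2 fold change of -0.98 ± 0.13 (SE, unadjusted p = 1.40e-05, edgeR adjusted p = 0.0564), just outside the threshold, in a fit that called 0.012% of 16652 genes, Pgr and Pdgfd. With the marker score as a covariate over all 15 libraries the value was -0.64 ± 0.12 (SE, unadjusted p = 8.4e-05, edgeR adjusted p = 0.209). In that fit the unadjusted edgeR p of Adamts1 was 0.00497 in females and 0.000618 in males. Over all 17455 genes it was under 0.05 for 522 in females, 586 in males and 409 in the average. Over the alternatives Adamts1 was called in 0. The adjusted p of 0.0564 was the smallest of any target over all settings and comparisons. The marker split was chosen with earlier results of these data known. The adjustment covers neither choice.

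Marker levels were not matched between the labels in that set. The marker score, the centred mean log2(CPM + 0.5) of the endothelial, fibroblast and mural lists, ran from -1.57 to -1.05 in the 4 low-marker libraries labelled Pgr_KO and from -1.51 to -0.16 in the 5 labelled Pgr_WT. In the high-marker libraries Adamts1 ranged from 9.76 to 18.9 CPM under the Pgr_KO label (n = 4) and stood at 16.1 CPM in both under the Pgr_WT label, so the labels overlapped there.

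Cited2 also had lower means under the Pgr_KO label in both sexes. Cited2 binds the coactivators CBP and p300 and limits their use by hypoxia-inducible factor, and its loss in mice causes heart malformations (chromosome 10, 17723218 to 17725674, plus strand). Female levels of Cited2 were 5.42, 8.59, 5.89 and 4.28 CPM in the Pgr_KO libraries, against 5.09, 7.71 and 6.65 CPM in the Pgr_WT libraries. Male levels of Cited2 were 4.26, 6.27, 3.60 and 5.17 CPM in the Pgr_KO libraries, against 3.26, 7.78, 6.86 and 7.41 CPM in the Pgr_WT libraries. The labels overlapped in both sexes. The log2 fold change was -0.10 ± 0.30 in females and -0.39 ± 0.28 in males (SE, edgeR adjusted p = 1 and 0.999).

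In the low-marker libraries Cited2 held 3.60 to 5.89 CPM under the Pgr_KO label (n = 4) and 6.65 to 7.78 CPM under the Pgr_WT label (n = 5), again without overlap. The average log2 fold change there was -0.62 ± 0.17 (SE, unadjusted p = 0.00323, edgeR adjusted p = 0.995). In the high-marker libraries the means lay the other way, at 6.13 ± 1.83 CPM under the Pgr_KO label (SD, n = 4) and 4.17 ± 1.29 CPM under the Pgr_WT label (SD, n = 2). The same gap in marker score stands beside both genes. Cited2 and Adamts1 were the only members whose 2 Pgr_KO means lay below both Pgr_WT means, a pattern found in 9.68% of all tested genes, and Gata2 the only one with both above, found in 15.2%.

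**Figure D2:**
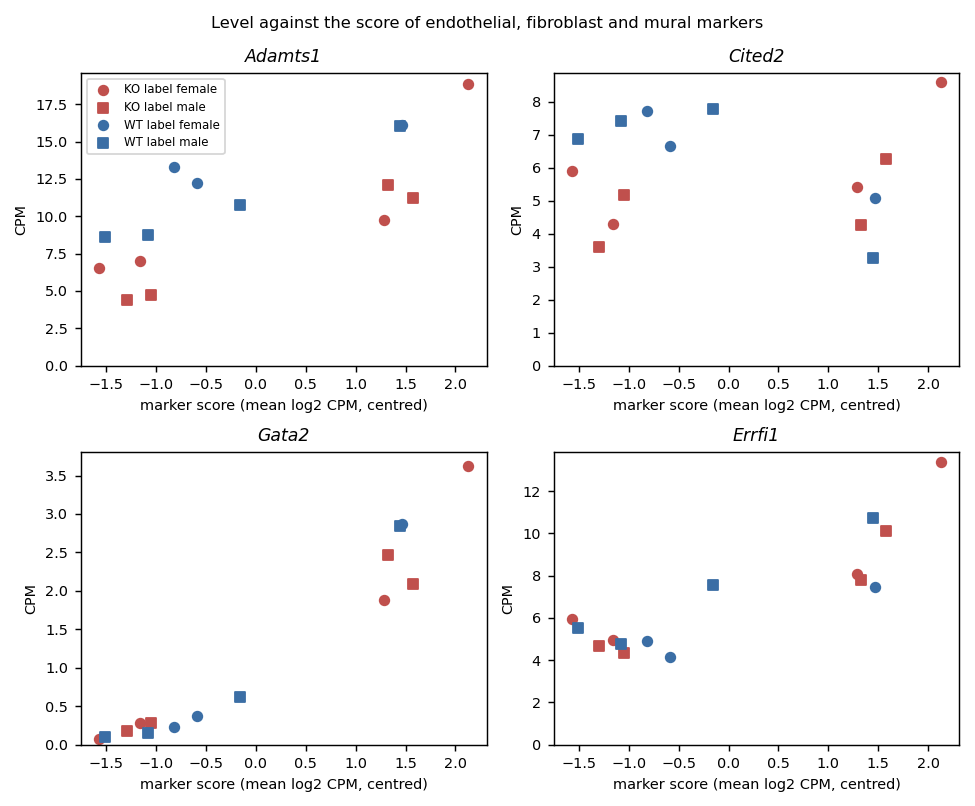
CPM of Adamts1, Cited2, Gata2 and Errfi1 (vertical axes) against the marker score (horizontal axis, centred mean log2 CPM), 1 point per library, circles for females and squares for males, red for the Pgr_KO label and blue for Pgr_WT. At low scores Adamts1 lies at 4.40 to 7.03 CPM under the Pgr_KO label and 8.58 to 13.3 CPM under Pgr_WT, while Gata2 and Errfi1 are higher at high scores under both labels.

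The promoter of Adamts1 is shown because its level came nearest to a call, that of Cited2 because it separated the same libraries, and an inner promoter of Greb1 because it alone held the core of the hormone response element. The letters run 5′ to 3′ on the gene's strand over the 250 bases before a start site, from RefSeq on GRCm38.p6, whose table had a promoter for 7 of the 8 genes. Capitals mark matches to ACANNNTGT (the core of the element bound by progesterone and glucocorticoid receptors), AGAACA (its half-site), GGGCGG (the GC box bound by Sp1) and TATAAA, searched on both strands. Adamts1 lies at chr16:85803114-85803363 (minus strand), Cited2 at chr10:17722978-17723227 (plus strand) and the Greb1 promoter at chr12:16757240-16757489 (minus strand).
Adamts1: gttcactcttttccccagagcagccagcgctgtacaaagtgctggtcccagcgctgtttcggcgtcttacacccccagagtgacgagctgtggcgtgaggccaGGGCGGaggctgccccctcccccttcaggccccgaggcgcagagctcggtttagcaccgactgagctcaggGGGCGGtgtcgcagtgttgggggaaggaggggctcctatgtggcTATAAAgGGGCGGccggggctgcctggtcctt
Cited2: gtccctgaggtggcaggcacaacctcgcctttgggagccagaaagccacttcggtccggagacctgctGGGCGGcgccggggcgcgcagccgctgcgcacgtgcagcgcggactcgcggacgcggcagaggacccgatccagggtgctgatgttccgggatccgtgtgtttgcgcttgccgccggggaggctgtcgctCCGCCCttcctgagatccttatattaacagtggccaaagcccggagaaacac
Greb1: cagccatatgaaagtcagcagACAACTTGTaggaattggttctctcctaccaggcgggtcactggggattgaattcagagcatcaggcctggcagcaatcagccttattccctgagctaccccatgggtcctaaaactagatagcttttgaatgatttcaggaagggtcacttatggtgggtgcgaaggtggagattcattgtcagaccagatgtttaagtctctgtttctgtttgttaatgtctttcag

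Across 10 promoters of the 7 genes, ACANNNTGT was found in 1, that of Greb1, 229 bases before its start, and in 5.84% of 32851 mouse promoters of the same length. AGAACA was found in 0 of 10 and in 16.1% of all. GGGCGG was found in 7 of 10, those of Hand2, Errfi1, Cited2, Adamts1, Rgs2 and both of Gata2, and in 32.7% of all. TATAAA was found in 2 of 10, those of Errfi1 and Adamts1, and in 12.4% of all. In Adamts1 the GC boxes begin 147, 76 and 25 bases before the start and TATAAA 32 bases before it, with no overlap between them. These are matches of letters in short windows and say nothing of binding.

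Greb1 and Rgs2 overlapped between the labels in both sexes and also between the marker sets, with Greb1 at 0.808 to 1.64 CPM in the high-marker and 0.566 to 1.22 CPM in the low-marker libraries. Rgs2 had 6.01 to 13.1 CPM in the high-marker and 4.48 to 11.4 CPM in the low-marker libraries. Greb1, a cofactor of oestrogen receptor whose transcription responds to steroid hormones (chromosome 12, 16670615 to 16800886, minus strand), had 28 to 127 reads per library over a gene body of 130 kb, 7.35% of it exonic. Greb1 in females had 1.64, 1.13, 0.922 and 0.932 CPM in the Pgr_KO libraries, against 1.44, 1.07 and 1.22 CPM in the Pgr_WT libraries. Greb1 in males had 1.27, 0.808, 0.566 and 0.925 CPM in the Pgr_KO libraries, against 1.59, 0.972, 0.825 and 0.756 CPM in the Pgr_WT libraries. The labels overlapped, with log2 fold changes of -0.10 ± 0.33 in females and -0.23 ± 0.31 in males (SE, edgeR adjusted p = 1 and 0.999).

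Rgs2 speeds the shut-off of Gq proteins downstream of hormone receptors in heart and vessel muscle (chromosome 1, 143999338 to 144004161, minus strand). Female levels of Rgs2 were 7.29, 13.1, 11.4 and 9.32 CPM in the Pgr_KO libraries, against 7.26, 11.2 and 10.1 CPM in the Pgr_WT libraries. Male levels of Rgs2 were 8.0, 6.01, 4.48 and 9.05 CPM in the Pgr_KO libraries, against 6.16, 8.34, 7.73 and 7.56 CPM in the Pgr_WT libraries. The labels overlapped in both sexes, and the average fold change was 0.998 (edgeR adjusted p = 1). Its 95% interval of 0.777-fold to 1.28-fold was the narrowest of the 8 genes on the log2 scale. Females averaged higher than males under both labels, at 10.3 ± 2.5 against 6.88 ± 2.04 CPM under Pgr_KO (SD, n = 4 each) and 9.53 ± 2.03 against 7.45 ± 0.925 CPM under Pgr_WT (SD, n = 3 and 4), with log2 differences of 0.58 ± 0.23 and 0.36 ± 0.25 (SE, edgeR adjusted p = 0.757 and 1). Without the 3 libraries that hold other-sex reads these were 0.44 ± 0.24 and 0.29 ± 0.29 (SE, edgeR adjusted p = 0.971 and 1).

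**Figure D3:**
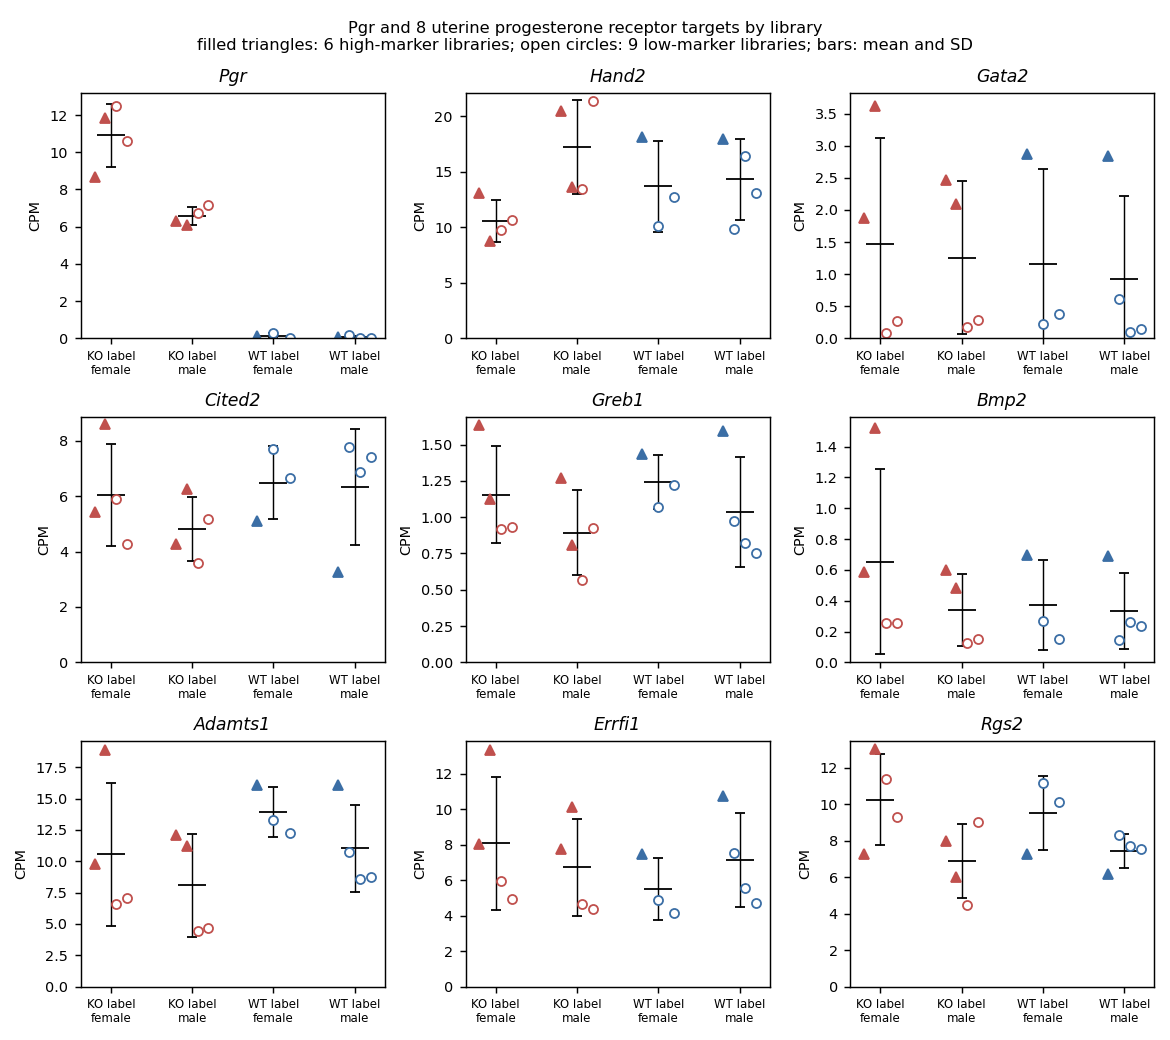
CPM of Pgr and the 8 targets in each library (vertical axes from 0), grouped as Pgr_KO females, Pgr_KO males, Pgr_WT females and Pgr_WT males, with the mean and SD of each group; filled triangles are the 6 high-marker libraries and open circles the 9 low-marker ones. Pgr separates the labels (6.10 to 12.5 CPM against at most 0.267 CPM), and no target does in either sex.

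Between females and males 0 of 8 targets were called under the Pgr_KO label, against 0.0229% of all genes, and 0 of 8 under the Pgr_WT label, against 0%. At an unadjusted edgeR p under 0.05 these were 2 of 8 (Hand2 and Rgs2) under the Pgr_KO label, against 6.37% of all genes, and 0 of 8 under the Pgr_WT label, against 2.09%. DESeq2 and limma-voom called 0 of 8 in both. With replicate numbers as a block the count over all genes was 13 in place of 4 under the Pgr_KO label and 1 in place of 0 under the Pgr_WT label, none of them a target. The difference between the sexes in the label effect called 0 of 8 and 0% of all genes. For it 0 of 8 targets and 435 of all genes had an unadjusted p under 0.05, and DESeq2 called 1 gene and limma-voom 0. The block was fitted to all 4 groups, also the female ones, between which the numbers were not taken as pairs. With it, more genes had an unadjusted edgeR p under 0.05 in each comparison. More targets did too, except between the sexes under the Pgr_KO label, where they stayed at 2. This fit again called 0 of 8. Between the labels the targets under 0.05 with the block were Errfi1 and Hand2 in females (4.61% of all genes), Adamts1 in males (3.62%) and Adamts1 in the average (2.11%). They were Errfi1 and Hand2 for the difference between the sexes in the label effect (7.32%), Hand2 and Rgs2 between the sexes under the Pgr_KO label (13.1%) and Errfi1 under the Pgr_WT label (3.39%). Ranges did not overlap for 0 of 8 targets between the labels in females (1.92% of all genes), 0 of 8 between the labels in males (1.6%) and 0 of 8 between the sexes under the Pgr_WT label (2.95%).

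The intervals of the fit to all 15 libraries without the marker score show which sizes of label effect that fit still allows. For the average over the sexes they ran from 0.777-fold to 1.28-fold for Rgs2, from 0.745-fold to 1.25-fold for Hand2, from 0.637-fold to 1.25-fold for Greb1 and from 0.621-fold to 1.15-fold for Cited2, each Pgr_KO over Pgr_WT. For Adamts1 they ran from 0.484-fold to 1.15-fold and for Errfi1 from 0.787-fold to 1.76-fold. Those of Bmp2, 0.591-fold to 3.00-fold, and Gata2, 0.305-fold to 5.58-fold, were the widest. Bmp2 and Gata2 stood below 1-fold, with log2 values of -0.21 and -0.42, without the 3 libraries that hold other-sex reads. The interval of Pgr, 37.2-fold to 286-fold, lay above all of them. With the marker score as a covariate, the log2 intervals of the average were -0.90 to -0.38 for Adamts1 and -0.54 to 0.31 for Gata2. In the low-marker libraries alone they were -1.27 to -0.69 for Adamts1 and -0.99 to -0.26 for Cited2. In the average, the remaining targets, and Cited2 with the covariate, had intervals that include 0 in these fits. Within each sex, the intervals of Adamts1 excluded 0 in both fits. With the covariate that of Errfi1 was 0.10 to 0.81 in females and -0.58 to 0.06 in males. In the low-marker libraries that of Cited2 was -1.04 to 0.04 in females and -1.24 to -0.25 in males. No target was called in either fit.

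**Figure D4:**
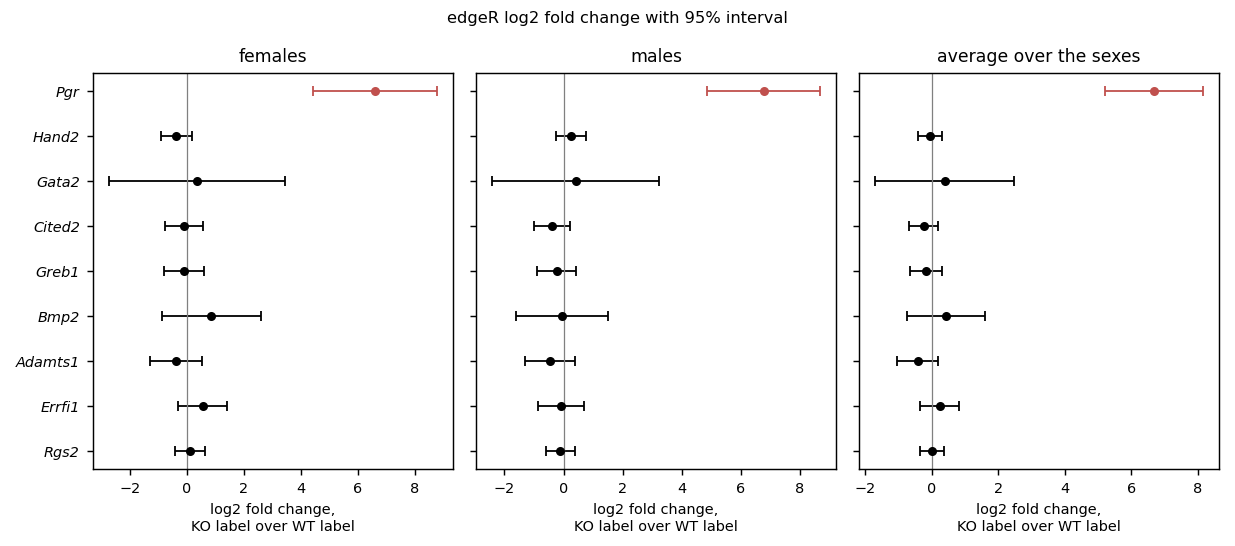
Log2 fold change, Pgr_KO over Pgr_WT, with its 95% interval from edgeR (horizontal axes) for Pgr (red) and the 8 targets (black) in females, in males and in the average over the sexes. The fit leaves out the marker score. In it the intervals of the 8 targets all include 0, and that of Pgr runs from 5.22 to 8.16 in the average.

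Pairs of targets differed in how alike their levels were. Over the 15 libraries, which share the split by markers, Pearson's r of log2(CPM + 0.5) was 0.856 to 0.870 among the pairs of Errfi1, Bmp2 and Gata2, as a description without a test. Within the 9 low-marker libraries these pairs had r of 0.07, 0.26 and -0.58. Adamts1 and Cited2, which both separated the labels within the 9, had r = 0.29 over the 15 libraries and 0.82 within the 9. Hand2 and Cited2 had -0.55 and -0.22. The highest r within the 9 was that of Greb1 and Rgs2, at 0.87 against 0.20 over the 15. No r with Pgr is given, since Pgr falls into separate clusters by label and sex that hold 3 or 4 libraries each.

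The genes most like each target differed from target to target. By r over the 15 libraries, among tested genes other than the targets and predicted genes (Gm and Rik symbols), those most like Gata2 were Ddr2, a collagen receptor, Cd9, a tetraspanin, and C1qtnf1, each with r = 0.995. Bmp2 was most like Gabra3 (0.976), Hgf (0.968) and A2m (0.954), and Errfi1 most like Kctd12b (0.969), Lrrc18 (0.959) and Hacd4 (0.957). For Hand2 they were Atp6v0c, a subunit of the proton pump of lysosomes (0.925), Mafk (0.910) and Tex29 (0.890). For Adamts1 they were Dubr (0.875), Uhrf1 (0.869) and Angptl1 (0.863), and for Cited2 Slc35b2 (0.850), the zinc exporter Slc30a1 (0.841) and the Wnt receptor Fzd8 (0.821). Greb1 was most like Fam117a (0.841), H2-Q5 (0.83) and Baiap2 (0.811), and Rgs2 most like Zfp804a (0.839), Saxo2 (0.826) and Acot1 (0.813). The r of Hand2 with Atp6v0c was 0.963 within the 9 low-marker libraries, that of Gata2 with Ddr2 0.942 and that of Bmp2 with Gabra3 0.519.

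A wider list of 58 genes tied to progesterone in uterus, ovary or mammary gland, or working with its receptor, gave the same count. Of these, 43 were tested and 0 were called between the labels in females or in males, with median log2 fold changes of 0.11 and 0.07 beside 0.03 and 0.02 over all tested genes. Unadjusted p-values under 0.05 numbered 3 of 43 in females (6.98%, against 1.74% of all genes) and 1 of 43 in males (2.33%, against 1.42%). DESeq2 and limma-voom called 0 of the list in both. Between the sexes under the Pgr_KO label DESeq2 called 1 of the 43, beside 57 of all 17455 genes, while edgeR and limma-voom called 0 of the list. Bcl6 had the smallest edgeR p of the list in that comparison (unadjusted p = 0.00172, adjusted p = 0.616). In females the smallest p-values were those of Muc1, a mucin of the uterine surface, Klf9, a Krüppel-like factor that interacts with the receptor, Pparg, a receptor for lipids, and Fgf2, a growth factor. In males they were those of Bcl6, a transcriptional repressor, Muc1, Prlr, the prolactin receptor, and Adam8, a membrane protease.

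Klf9 in females stood at 105, 103, 92.0 and 73.9 CPM in the Pgr_KO libraries, against 77.6, 73.8 and 78.9 CPM in the Pgr_WT libraries, a log2 fold change of 0.29 ± 0.12 (SE, edgeR adjusted p = 1). Pparg in females averaged 65.6 ± 10.9 CPM in the Pgr_KO libraries and 51.0 ± 8.24 CPM in the Pgr_WT libraries (SD, n = 4 and 3), at 0.36 ± 0.16 (SE, edgeR adjusted p = 1). Both overlapped between the labels. Muc1 in females stood at 0.263, 0.0980, 0.179 and 0.127 CPM in the Pgr_KO libraries, against 0.388, 0.381 and 0.319 CPM in the Pgr_WT libraries, at -1.11 ± 0.42 (SE, edgeR adjusted p = 1). The ranges did not overlap, as in 1.92% of all tested genes. These levels rest on 6 to 13 reads per Pgr_KO library and 10 to 17 per Pgr_WT library. Fgf2 in females averaged 4.66 ± 2.31 CPM in the Pgr_KO libraries and 2.75 ± 0.333 CPM in the Pgr_WT libraries (SD, n = 4 and 3).

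Bcl6 in males stood at 30.4, 36.0, 34.7 and 45.5 CPM in the Pgr_KO libraries, against 28.4, 18.4, 28.2 and 20.6 CPM in the Pgr_WT libraries. The male groups did not overlap, as in 1.6% of all tested genes, and the log2 fold change was 0.62 ± 0.19 (SE, edgeR adjusted p = 0.999). Muc1 and Bcl6 were named for their small p-values, so their lack of overlap is not separate evidence. In females Bcl6 averaged 22.0 ± 0.749 CPM in the Pgr_KO libraries and 21.6 ± 6.41 CPM in the Pgr_WT libraries (SD, n = 4 and 3), and the difference between the label effects, females minus males, was -0.59 ± 0.28 (SE, edgeR adjusted p = 1). The signs of Muc1 differed between the sexes, with a difference of -1.81 ± 0.56 (SE, edgeR adjusted p = 1). Muc1 in males averaged 0.378 ± 0.102 CPM in the Pgr_KO libraries and 0.230 ± 0.0878 CPM in the Pgr_WT libraries (SD, n = 4 each). Prlr in males averaged 56.8 ± 3.55 CPM in the Pgr_KO libraries and 70.1 ± 14.5 CPM in the Pgr_WT libraries, and Adam8 1.48 ± 0.320 CPM and 0.985 ± 0.347 CPM (SD, n = 4 each), with overlap in both genes.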

How the data were processed

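Nuclear RNA of mouse ventricles was measured in 15 libraries. The submitters' processing notes name STAR 2.5.3a, featureCounts 1.5.0 and the mouse build GRCm38 (mm10). Both tables the authors deposited hold counts that were not normalized, and the larger, of 55536 genes, was used. Its gene length equals the gene body in 100% of genes. The smaller table repeats 16610 of these genes with identical counts. The table's name carries the tag strrev, which reads as reverse-strand counting, but no label explains it.

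Genes were kept by filterByExpr and scaled by TMM in edgeR 4.0.16 (R 4.3.3). A quasi-likelihood model with 1 mean for each of the 4 label groups was fitted to all 15 libraries, tested on simulated data first, and p-values were adjusted over all 17455 tested genes by Benjamini-Hochberg. Standard errors come from the estimate and its F statistic. Alternatives used DESeq2 1.42.0, limma 3.58.1 (voom), size factors, no filter, a replicate block, a marker covariate, subsets of libraries and each library left out. Floors of 3 counts equal 0.0219 to 0.117 CPM, and count intervals cover counting error only. Any pair of libraries of a group differed by far more than sampling noise (chi-square of at least 30.1 per gene). Replicate numbers come from the titles. Deviations from group means of same-numbered libraries had r of 0.139 to 0.734 between the male groups, 0.511 to 0.857 between the sexes under Pgr_KO, 0.306 to 0.885 under Pgr_WT and -0.382 to 0.749 between the female groups, so numbers were taken as pairs in the first 3 and not in the last. The lowest r between the male and between the female groups was that of replicate 2, high-marker under Pgr_KO and low-marker under Pgr_WT. Whether r reflects pairs or the marker split was not tested. No label gives pairs, and pairs in the first 3 comparisons would imply pairs in the last, so this choice rests on r alone. The main model holds no block, so its p-values and intervals leave any pairing out.

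All 8 members were reported. Of the wider list, the main fit called none, so the 4 genes with the smallest p between the labels in each sex were named. The 1 gene of that list that DESeq2 called between the sexes under the Pgr_KO label is not named. For likeness the 3 genes with the highest r were named. Members, lists and the marker split were chosen with earlier results of these data known.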

Additional observations from a re-analysis of the deposited data

How the results depend on the processing

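No target was called in any of the 24 or 25 settings of each of the 6 comparisons, and the smallest adjusted p was 0.0564 for Adamts1 in the average over the sexes, in the low-marker libraries alone. Over the 6 comparisons and all settings, 88 of 1136 recomputed log2 values of targets took the opposite sign, 60 of them with a library left out and 28 in other settings, all uncalled. Among the values printed above, those in other settings were as follows. Without the 3 libraries that hold other-sex reads, Bmp2 was -0.15 and Gata2 -1.09 in females, and Bmp2 was -0.21, Gata2 -0.42 and Rgs2 0.023 in the average. With the marker covariate, Gata2 was -0.26 in females and -0.12 in the average, and Rgs2 0.013 in the average. In the low-marker libraries, Gata2 was -0.79 and Rgs2 -0.045 in females, Gata2 -0.23 in males, and Hand2 0.12, Errfi1 -0.064, Bmp2 -0.12 and Gata2 -0.51 in the average. With no filter Rgs2 was 0.0034 in the average. With each library left out, the female effects ranged from -0.32 to 0.011 for Greb1, -0.32 to 0.034 for Cited2, -0.61 to 2.25 for Gata2 and -0.054 to 0.24 for Rgs2. The male effects ranged from -0.43 to 0.060 for Greb1, -0.36 to 0.18 for Errfi1, -0.41 to 0.60 for Bmp2, -0.14 to 2.12 for Gata2 and -0.28 to 0.046 for Rgs2. The averages ranged from -0.15 to 0.074 for Hand2, -0.0082 to 0.83 for Bmp2, -0.10 to 1.33 for Gata2 and -0.084 to 0.077 for Rgs2. Leaving out the Pgr_WT replicate 1 of a sex gave the highest Gata2 value in that sex. The causes were not tested.

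Over all genes, counts moved more. In females 3 genes were called by DESeq2, 1 by limma-voom and 1 with the marker covariate. In males 4 were called by DESeq2, and 0 with size factors, in the low-marker libraries, without those 3 libraries or with only the compared groups fitted, and 0 to 1 with a library left out. In the average, DESeq2 called 7 and the fit without those 3 libraries 1, and DESeq2 called 1 for the difference between the sexes. For females minus males under Pgr_KO, 57 were called by DESeq2, 10 by limma-voom, 15 with the marker covariate, 13 with the replicate block, 7 without those 3 libraries, 2 without a filter, 1 in the low-marker libraries, 1 with only the compared groups and 0 to 10 with a library left out. Under Pgr_WT they were 14 by DESeq2, 6 by limma-voom, 6 without those 3 libraries, 1 each with no filter, the block, the covariate or the low-marker libraries, and 0 to 2 with a library left out. The replicate block changed no call of a target, and its numbers were not taken as pairs between the female groups. With a library left out, the ratio of mean Pgr CPM ranged from 56.9 to 187 in females, where the exact permutation test cannot then pass 0.05, and from 77.1 to 219 in males. Depth limits Bmp2 and Gata2, with 6 and 3 reads in their lowest libraries, and Muc1 of the wider list, with 5.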
